A study of Mus musculus with 36 samples.

Results

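H3K9me3, the trimethylation of lysine 9 on histone H3, was examined in the livers of 3-week-old female mice born to obese dams (MF_3w, 4 ChIP libraries) and to control dams (CF_3w, 4 ChIP libraries). The regions described are the autosomal ones, on chromosomes 1 to 19, of the table the authors deposited for these groups: 133697 of its 140214 bins, a bin being a stretch of at most 501 bp of an H3K9me3 peak. The remaining 6517 bins lie on chromosome X, and the 6 tables of the series hold 786789 rows in all.

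The MF_3w dams received a Western-style diet before mating, through gestation and through lactation (maternal obesity, MO), while the CF_3w dams received the control diet. The offspring of both groups were taken before weaning. They carried floxed Reg3g alleles (Reg3g-fl/+ or Reg3g-fl/fl) on a C57BL/6J background, as littermate controls from an in-house colony whose dams were mated with wild-type C57BL/6J males. The material was frozen whole liver, so hepatocytes and all other liver cells contributed chromatin to each library, and a weaker mark cannot be told apart from a mark present in fewer cells. With the males and the 8-week-old mice, the whole study comprised 32 ChIP libraries in 8 groups, plus 4 input libraries.

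The only measured level in the table is 1 value per bin: the authors' average log2 CPM, the reads in the bin scaled by library size, which is taken to be over the 8 libraries of MF_3w and CF_3w. The other numerical columns are results of the authors' comparison of MO with control and were not used. The table gives no value for a single library, so the effect of MO was not tested here, and no spread between animals or depth per library stands behind the levels that follow. They describe where reads of the H3K9me3 ChIP lay in the female liver at 3 weeks, over both maternal diets. The input libraries were not used, so a level is not an enrichment over input. Bins are not replicates, and no test over bins was made.

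H3K9me3 marks condensed, transcriptionally silent chromatin. It is placed by the methyltransferases SETDB1, SUV39H1 and SUV39H2 and is bound by the HP1 proteins, which are encoded by Cbx1, Cbx3 and Cbx5. A main route to its targets in mammals runs through zinc finger proteins with a KRAB domain, which recognise transposable elements and other sequences and bring in TRIM28 (KAP1) and SETDB1. The mark is known on repeats, on the 3′ exons of zinc finger genes, at imprinting control regions, over olfactory and vomeronasal receptor clusters, and at genes of other lineages that the liver does not use.

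The sequences of 6 bins with high signal, read from the GRCm38 genome, are shown for the sites that the results return to, and they are not a cross-section of the strong bins, most of which are repeat-rich and distal intergenic. The first is the middle of the highest bin of all, in an intron of the long non-coding RNA gene Gm36264, which is a purine-rich repeat of G, G and A (plus strand, chr13:9011838-9012037).

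Gm36264 intron: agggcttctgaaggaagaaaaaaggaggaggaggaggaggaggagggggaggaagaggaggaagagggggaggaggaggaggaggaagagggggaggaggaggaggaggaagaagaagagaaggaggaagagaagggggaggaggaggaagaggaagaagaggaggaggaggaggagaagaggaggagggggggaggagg

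The second is the middle of a distal intergenic bin near Cyp2c67, which is 92.4% repeat sequence by the reference's masking (plus strand, chr19:39657001-39657200).

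Near Cyp2c67: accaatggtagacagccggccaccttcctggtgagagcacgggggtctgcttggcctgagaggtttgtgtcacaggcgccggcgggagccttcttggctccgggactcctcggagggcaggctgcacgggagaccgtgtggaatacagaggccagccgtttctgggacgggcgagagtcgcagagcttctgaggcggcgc

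The next pair comes from the last exons of the zinc finger genes Zfp334 (minus strand, chr2:165380544-165380843) and Zfp619 (plus strand, chr7:39536326-39536625). Capitals mark matches to ACNGGNGANAANCC, the letters fixed in every codon of TGEKP, the linker peptide that joins neighbouring zinc fingers.

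Zfp334 last exon: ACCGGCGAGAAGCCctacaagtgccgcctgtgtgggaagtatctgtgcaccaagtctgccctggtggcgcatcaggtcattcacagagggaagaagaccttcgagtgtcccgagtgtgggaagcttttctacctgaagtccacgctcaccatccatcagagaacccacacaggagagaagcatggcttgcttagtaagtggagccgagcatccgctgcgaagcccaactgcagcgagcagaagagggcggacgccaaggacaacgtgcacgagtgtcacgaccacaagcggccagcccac

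Zfp619 last exon: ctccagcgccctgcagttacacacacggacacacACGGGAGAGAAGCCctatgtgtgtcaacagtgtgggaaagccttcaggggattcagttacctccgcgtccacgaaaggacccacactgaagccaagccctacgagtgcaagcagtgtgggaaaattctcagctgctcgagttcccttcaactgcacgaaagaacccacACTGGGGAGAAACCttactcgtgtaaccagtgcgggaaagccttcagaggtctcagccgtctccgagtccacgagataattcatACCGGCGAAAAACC

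The last pair comes from the promoters of the germline genes Ddx4 (minus strand, chr13:112651930-112652229) and Dazl (minus strand, chr17:50293440-50293739). Capitals mark CG dinucleotides, the sites of DNA methylation, of which these stretches hold 31 and 32.

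Ddx4 promoter: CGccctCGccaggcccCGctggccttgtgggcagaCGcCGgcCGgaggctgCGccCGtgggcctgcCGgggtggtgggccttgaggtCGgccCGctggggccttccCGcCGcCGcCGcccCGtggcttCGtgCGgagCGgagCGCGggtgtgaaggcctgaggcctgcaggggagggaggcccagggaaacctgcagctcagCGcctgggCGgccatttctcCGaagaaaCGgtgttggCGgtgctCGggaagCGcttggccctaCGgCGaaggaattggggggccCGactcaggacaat

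Dazl promoter: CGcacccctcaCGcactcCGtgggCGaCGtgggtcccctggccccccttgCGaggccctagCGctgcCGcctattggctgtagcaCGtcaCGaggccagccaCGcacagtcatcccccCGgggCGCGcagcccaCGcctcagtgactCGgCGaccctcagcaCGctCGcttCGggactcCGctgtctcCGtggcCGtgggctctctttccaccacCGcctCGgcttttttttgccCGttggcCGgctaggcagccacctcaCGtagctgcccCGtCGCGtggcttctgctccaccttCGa

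H3K9me3 signal was evenly low over most bins, with a short tail of much higher ones. The median was 2.40 log2 CPM (5.29 CPM), with quartiles of 2.25 and 2.59, and the whole range ran from 1.64 to 8.74. The upper 5% of bins began at 2.90 and the upper 1% at 3.15. A bin is called strong here at a log2 CPM of at least 3, which is 8 CPM; 3606 of the 133697 bins were strong, or 2.70%. At 4 or more there were 21 bins, and at 5 or more there were 3. Counts grow with the length of a bin, and 80243 bins had full length, taken as at least 500 bp. Their median was 2.39, although among peaks of up to 500 bp the 111 full-length bins had a median of 2.78 against 2.46 for all 44400, so length and level were not independent. Peaks were 830 bp long at the median and together covered 200.8 Mb, or 8.15% of the autosomes. The longest, 81961 bp, had its listed bin 2221 bp downstream of the start of Engase on chromosome 11. Each peak is represented by only 1 bin, and how that bin was chosen is not given in the sources used here.

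**Figure D1:**
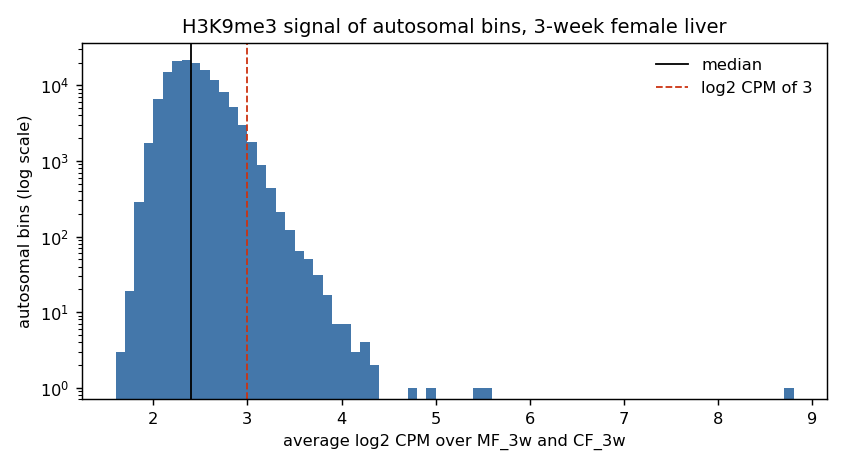
Number of autosomal bins (log axis) at each average log2 CPM over the MF_3w and CF_3w libraries, in steps of 0.1, with the median (solid line) and the threshold for a strong bin (dashed line). Most bins sit close to the median of 2.40, and a single bin stands at 8.74.

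Bins of long peaks were lower at the median. Full-length bins of peaks of over 500 and up to 1000 bp had a median of 2.49, those of peaks over 10000 bp one of 2.27. The density of bins also differed along the genome, from 37.2 per Mb on chromosome 3 to 75.4 per Mb on chromosome 11. The gene-dense chromosome 11 had the most bins per Mb and the smallest share of strong ones, 1.28%, while chromosome 3 had the fewest per Mb and the largest share, 3.78%.

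Most H3K9me3 bins lay in genes or far from them, and the strong ones lay mainly between genes. Promoters, taken as 3 kb to either side of a start of transcription, held 20.4% of bins, gene bodies 41.6% and distal intergenic DNA 38.1%. The median levels were close, at 2.40, 2.38 and 2.43. The shares of strong bins were further apart: 1.21% in promoters, 2.09% in gene bodies and 4.15% in distal intergenic DNA. Of all strong bins, 58.6% were distal intergenic and 9.15% were in promoters. Beyond 500 kb from the nearest start site, 8.58% of 3614 bins were strong, with a median of 2.57, against 1.26% of 17157 bins within 1 kb. Among full-length bins the corresponding medians were 2.62 and 2.41.

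Strong bins were rich in repeats. Soft-masked sequence, the part of the genome that the reference marks as interspersed or simple repeats, made up 12.2% of a bin at the median over all bins and 76.9% over the strong ones. More than 50% of the sequence was masked in 20.6% of all bins and in 66.8% of strong bins. Where the masked share was at least 75% but short of the whole bin, 12.3% of 13559 bins were strong, where the whole bin was masked 7.70% of 2649 were, and where the masked share was zero 1.08% of 25055 were. In the genome as a whole, 33.5% of autosomal bases are masked, so the typical bin was poorer in repeats than the genome and the strong bin richer. The bins were also rich in G and C, with a median GC content of 53.7% against 41.9% of autosomal bases, and the median level rose with GC content, from 2.31 at 45 to 50% to 2.51 at 60% and above. GC content and masking can alter the yield of sequenced and uniquely placed reads, and their part in the levels was not tested.

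**Figure D2:**
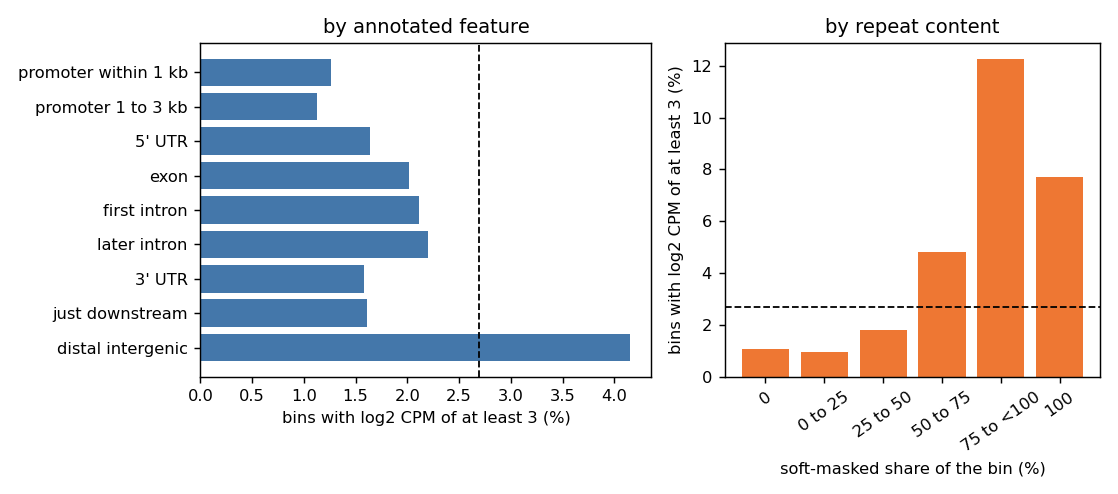
Percentage of bins with a log2 CPM of at least 3 by annotated feature (left) and by the soft-masked share of the bin (right). The dashed lines mark 2.70%, the share over all autosomal bins; distal intergenic bins (4.15%) and bins with 75% or more masked sequence lie above it, as do bins with 50 to 75% (4.81%).

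The highest bins are given one for each nearest gene. The first, the Gm36264 intron bin (chr13:9011707-9012168, 462 bp), reached 427 CPM. It lies in the last of 2 introns, 15.6 kb from the start of Gtpbp4, a nucleolar GTPase gene. It was 8.50 log2 CPM in the males of the same age (MM_3w and CM_3w) and 9.38 in the females at 8 weeks (MF_8w and CF_8w), the top value of each of those tables. The bin was therefore the highest in each of the 3 tables set side by side. It holds a repeat, and its level was not set against the input libraries.

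Among promoters the first was Taco1, which encodes a translational activator of mitochondrial cytochrome c oxidase, at 5.51 (chr11:106066511-106066865, 450 bp inside the gene). The same bin was again high at 8 weeks, at 6.37. Klf14, an intronless Krüppel-like zinc finger gene, had a bin of 4.26 inside the gene (chr6:30957714-30958214). Tcfl5, a transcription factor gene known from the testis, had 4.02 at its start site (chr2:180642694-180643194), and Zfp442 had 3.78 (chr2:150412402-150412875), in sequence that was 94.7% masked.

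Within genes, an exon of Gm28000 followed the Gm36264 bin with 4.70 (chr5:109598890-109599390); RefSeq places the vomeronasal receptor pseudogene Vmn2r-ps23 there. The first intron of Cfhr3, a complement factor H-related gene, had 4.37 (chr1:139649859-139650359). Zfp316 had 4.36 in the last of its 7 exons (chr5:143253917-143254417) and Zfp334 had 4.26 in the last of its 5 (chr2:165380388-165380888). Both of these exonic bins were free of masked sequence and lay in long peaks, of 11087 and 8473 bp.

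Among bins annotated as distal intergenic, the highest, at 4.96, was 30.8 kb from Zfp958 (chr8:4656666-4656847, 182 bp), in DNA that the table annotates as intergenic and RefSeq's long non-coding RNA gene Gm39123 spans. It was followed by bins 57826 bp from Cyp3a41a at 4.17 (chr5:145661810-145662310) and 50966 bp from Cyp3a11 at 4.04 (chr5:145930930-145931430). These genes encode drug- and steroid-metabolising cytochromes of the liver. A bin masked over its whole length, at 4.15 (chr5:83795456-83795851), had Tecrl only as its nearest gene, at 440261 bp. The fifth, at 4.04, carries no gene name in the table (chr5:104583458-104583958); in RefSeq the zinc finger gene Zfp33b spans it.

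Zinc finger genes are a known class of H3K9me3 target, and the mark on them is placed over the exon that encodes the finger array, usually the last. Of 417 autosomal genes with a zinc finger symbol (Zfp, Zscan, Zkscan and related names), 360 (86.3%) were nearest to at least 1 bin and 99 (23.7%) to a strong one. Over all autosomal protein-coding genes the shares were 82.8% and 10.1%. The median of their 2162 bins, 2.44, was near that of all bins, but 7.68% were strong. The exonic bins separated more clearly. In the last exons of zinc finger genes there were 87 bins in 85 genes, with a median of 2.61 and quartiles of 2.39 and 3.00, and 25.3% of them were strong. In the last exons of other genes, 1754 bins had a median of 2.39, and 2.22% were strong. With full-length bins alone the medians were 2.71 and 2.39, and the strong shares were 32.8% and 2.43%. The upper part of the zinc finger exons therefore lay above the bulk of other last exons, while the lower part overlapped it.

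Other parts of the same genes were lower. Bins in their earlier exons had a median of 2.49 (52 bins, 7.69% strong) and those in their introns one of 2.42 (486 bins, 6.58% strong). Introns of other genes had a median of 2.37 (38816 bins, 2.12% strong).

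**Figure D3:**
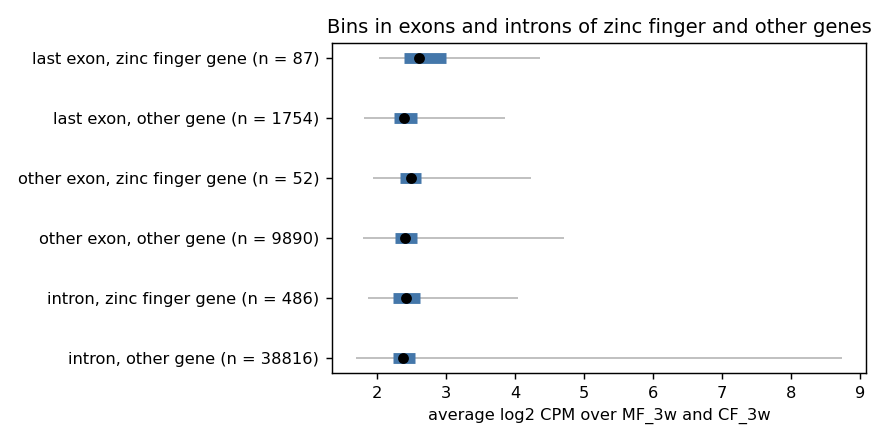
Average log2 CPM of bins in last exons, other exons and introns of zinc finger genes and of other genes. Points are medians, thick bars span the quartiles and thin lines the whole range; last exons of zinc finger genes have the highest median, 2.61.

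The linker sequence shown in capitals for Zfp334 and Zfp619 was searched on both strands (reverse complement GGNTTNTCNCCNGT). It was present in 42 of the 87 last-exon bins of zinc finger genes, or 48.3%, in 0.399% of last-exon bins of other genes and in 0.177% of all autosomal bins. Among the last-exon bins of zinc finger genes, those with the linker had a median of 2.69 and a strong share of 33.3%, and the 45 without it had 2.55 and 17.8%. The upper quartiles were 3.27 and 2.86, while the highest of these bins, in Zfp316, was in the set without the motif, and both sets spanned most of the same range. Copies of these exons resemble each other, and whether the authors' read placement split reads between them is not given in the sources used here. Besides Zfp334, the Zfp169 bin (3.87, exon 5 of 5) and the Zfp619 bin (3.74, exon 4 of 4) were high last-exon bins with a linker on the coding strand.

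Germline and meiosis genes, which are silent in somatic tissue, carried the mark at their promoters. All 19 genes of the list had a promoter bin, whereas 65.2% of autosomal protein-coding genes did. Strong bins were found at 5 of the 19 (26.3%, against 10.1% of protein-coding genes), and the highest bin of each of these lay within 1 kb of the start. Ddx4, an RNA helicase gene of germ cells, had 3.73 (chr13:112651791-112652291). Dazl, which encodes an RNA-binding protein needed for germ cell development, had 3.64 (chr17:50293253-50293753). Sycp1, a component of the synaptonemal complex, had 3.37 (chr3:102935277-102935777).

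Spo11, which makes the double-strand breaks of meiosis, had 3.31, and Asz1, of the piRNA pathway, had 3.19. The other members ran from 2.99 (Slc25a31) down to 2.30 (Piwil2). Their 89 bins had a median of 2.40, the same as all bins, so the strong signal was limited to these 5 genes of the list. Only 1.26% of all bins within 1 kb of a start site were strong.

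The Ddx4 and Dazl bins shown above had 7.58 and 8.78 CG dinucleotides per 100 bp, and the Sycp1 bin had 7.39. The median over promoter bins within 1 kb was 3.68, and over the 217 strong ones among them it was 6.39. All autosomal bins had a median of 1.80. The strong promoter bins were thus denser in CG than promoter bins in general.

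Imprinted genes are expressed from a single parental copy. They are controlled by regions with H3K9me3 and DNA methylation on a single parental copy of the region. A bin was found for 38 of 40 members, a promoter bin for 35 (87.5%, against 65.2% of protein-coding genes) and a strong bin for 13 (32.5%, against 10.1%). Of their 348 bins, 4.60% were strong, and of those in promoters and gene bodies 3.77%. For 7 of the 13 the highest bin lay outside promoters: in an exon for Kcnq1ot1 (3.23) and in distal intergenic DNA for Grb10, Peg12 (3.19), Snrpn (3.19), Inpp5f (3.01), Dlk1 (3.01) and Mirg (3.00), with Peg12 and Snrpn named only as the nearest genes, at 300.1 and 438.3 kb. The highest carried the name of Commd1 (3.48, chr11:22972482-22972982). It lies within RefSeq's Zrsr1 (chr11:22972005-22976496), an imprinted retrogene inside Commd1, near its start. Slc38a4, an amino acid transporter gene, had 3.37 at 1010 bp from its start (chr15:97054446-97054946), and Grb10, an inhibitor of growth factor signalling, had 3.39 in a repeat-rich bin 61.9 kb away (chr11:12100571-12101071).

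At other imprinted promoters the cell cycle inhibitor Cdkn1c had 3.36, Igf2, a fetal growth factor, 3.29, and the zinc finger gene Plagl1 3.06. Values just under the threshold stood at Gnas (2.99), Meg3 (2.97), Peg10 (2.97), Peg13 (2.93) and Herc3 (2.89). Magel2 (2.23) and Rtl1 (2.02) were below the median of all bins, so the list did not share a single level.

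Clustered protocadherins, the cell adhesion genes through which neurons are told apart, had the largest share of strong bins among the 11 lists examined, 26.0% of 77. A bin was found for 52 of 57 members, a promoter bin for 51 (89.5%, against 65.2% of protein-coding genes), and a strong bin for 19 (33.3%, against 10.1%). The median was 2.66, and 2.83 over full-length bins. The highest were Pcdhgb5 at 3.70 (chr18:37732643-37733143), Pcdhgb6 at 3.59 (chr18:37743893-37744393) and Pcdhgb4 at 3.53 (chr18:37722233-37722733), each 1 to 3 kb from the start of its own variable exon.

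The members did not behave uniformly: the highest bins of Pcdhb5 (1.99) and Pcdhb14 (1.93) were far below the median of all bins. The exons of the gamma cluster are nested in one another's transcripts, and the Pcdhgb5 bin lies inside 15 overlapping RefSeq genes. The gene names therefore give the nearest start and no more.

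Fewer of the chemosensory receptor genes than of protein-coding genes in general were nearest to a bin or had one at the promoter. Of 352 vomeronasal receptors, which detect pheromones, 221 had a bin (62.8%, against 82.8% in general), 19 had a promoter bin (5.40%, against 65.2%) and 67 had a strong bin (19.0%, against 10.1%). Their 685 bins had a median of 2.60, and 11.8% were strong, against 2.70% of all bins.

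Of 1104 olfactory receptors, 590 had a bin (53.4%, against 82.8% of protein-coding genes), 169 a promoter bin (15.3%, against 65.2%) and 89 a strong bin (8.06%, below the general 10.1%). Their 1116 bins had a median of 2.58 and a strong share of 8.24%, against 2.70% of all bins. In promoters and gene bodies alone the strong share was 4.90%, against 1.80% of all such bins. Promoters held 3.07% of the vomeronasal bins and 16.9% of the olfactory ones, against 20.4% of all bins, so the olfactory bins that were found had a share in promoters near the general one.

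The highest vomeronasal bins were in exon 4 of Vmn2r11 at 3.53 (chr5:109051073-109051547), 18.7 kb from Vmn1r230 at 3.53 (chr17:20865254-20865706) and in Gm45364 near Vmn1r80 at 3.53 (chr7:12206068-12206565). The highest olfactory ones were at Olfr212 with 3.78 (chr6:116505262-116505762), 754 bp upstream of its start, and near Olfr338 with 3.66 (chr2:36363842-36364342) and Olfr1564 with 3.57 (chr17:33232206-33232706). Of these 6 bins, those near Vmn1r230 and Olfr1564 and that in Vmn2r11 were over 90% masked (98.7%, 95.2% and 93.1%).

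Cytochrome P450 genes of family 2 encode enzymes of drug and steroid metabolism and lie in tandem clusters. A bin was found for 42 of 47 members (89.4%, against 82.8% of all protein-coding genes) and a strong bin for 19 (40.4%, against 10.1%), but a promoter bin for only 16 (34.0%, against 65.2%). Of 176 bins 18.2% were strong, and the median was 2.53. The highest were between genes: near Cyp2c67 at 3.78 (chr19:39656851-39657351), near Cyp2c40 at 3.75 (chr19:39824332-39824832) and 45.4 kb from Cyp2d9 at 3.61 (chr15:82499817-82500317).

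These 3 bins were 92.4%, 92.4% and 87.6% masked. In promoters and gene bodies alone the strong share of the family was 11.6% and the median 2.49. Introns of Cyp2j5 (3.42) and Cyp2b10 (3.30) were among the high bins inside genes.

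Other genes of the hepatocyte were near the general level. Of 21 hepatocyte genes, which comprise plasma protein, metabolic and transcription factor genes, 17 had a bin (81.0%, against 82.8% of protein-coding genes), 11 had a promoter bin (52.4%, against 65.2%) and 2 had a strong bin (9.52%, against 10.1%). No bin was nearest to Alb, Fga, Fgb or Ahsg, which encode albumin, fibrinogen chains and fetuin. The bins of the list had a median of 2.40 and its highest ones were outside the genes they are named for: 6.93 kb from Foxa1 at 3.20 (chr12:57538711-57539194), 82.5 kb from Apob in an intron of Gm33037 at 3.03 (chr12:8094813-8095263), and 319 kb from Cps1 at 2.91 (chr1:67441958-67442411). At the promoters of Trf and Apoa1, the transferrin and apolipoprotein A-I genes, the highest bins were 2.49 and 2.32.

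No bin of the lipid metabolism genes was strong (0 of 150), and their median was 2.36, or 2.41 over full-length bins. A bin was present for 25 of 27 members (92.6%, against 82.8% of protein-coding genes) and a promoter bin for 21 (77.8%, against 65.2%). Among the highest were intron 8 of the fatty acid transporter gene Cd36 at 2.85 (chr5:17806989-17807308) and intron 1 of Eci2, an enzyme of unsaturated fatty acid oxidation, at 2.80 (chr13:34998054-34998554). The highest bins of the lipogenic genes Fasn, Scd1 and Srebf1 were 2.61, 2.53 and 2.46, and that of Ppara, a regulator of fatty acid oxidation, was 2.71. Over all bins 2.70% were strong. A strong bin was nearest to 0 of the 27 members, against 10.1% of protein-coding genes. Whether these shares differ was not tested.

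**Figure D4:**
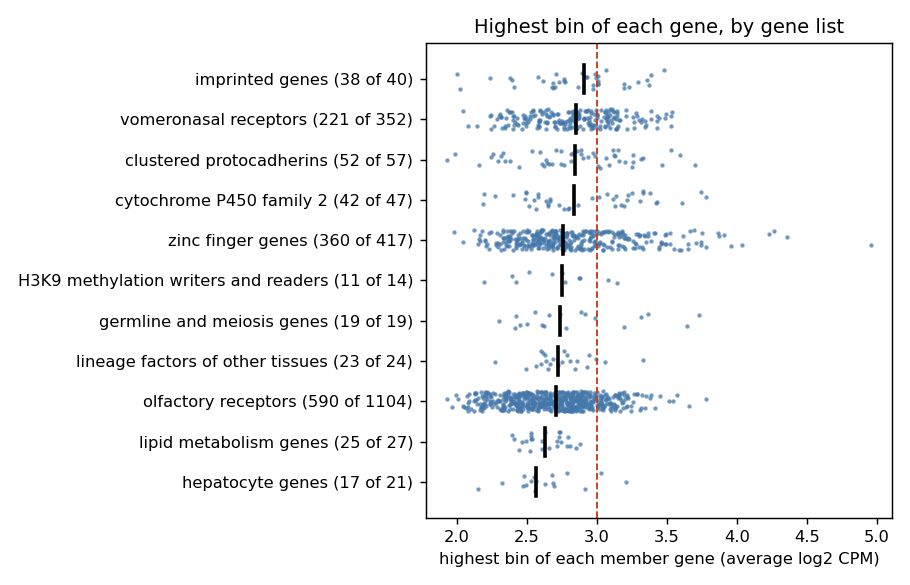
Highest bin of each member gene (points, average log2 CPM) for the 11 gene lists, with the median of each list (black bars) and the threshold for a strong bin (dashed line). Labels give how many members had a bin; genes with many bins have more chances of a high one, so the lists are not ranked by this measure in the text.

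Transcription factor genes of other lineages had bins at 23 of 24 members (95.8%, against 82.8% of protein-coding genes), promoter bins at 20 (83.3%, against 65.2%) and strong bins at 2 (8.33%, against 10.1%). Their median was 2.41, and 2.45% of 245 bins were strong. Distal bins were among their highest, such as those 3.09 kb from Sim1 at 3.06 (chr10:50892064-50892564) and 74.9 kb from Sox1 at 2.99 (chr8:12471344-12471844). None of the 114 bins in their promoters and gene bodies was strong, against 1.80% of all such bins, and whether these shares differ was not tested. At the promoters of the pluripotency gene Pou5f1 and the eye and pancreas gene Pax6 the highest bins were 2.75 and 2.72, and at that of Sox2 it was 2.27.

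Of the genes that write and read the mark, 11 of 14 had a bin (78.6%, against 82.8% of protein-coding genes) and 8 a promoter bin (57.1%, against 65.2%), shares near the general ones; Suv39h1 is on chromosome X and was not counted. Of their 40 bins 4 were strong, against 2.70% of all bins, and these were nearest to only 2 genes. The highest were 4055 bp upstream of the nearest start of Atf7ip, the cofactor of SETDB1, at 3.14 (chr6:136514247-136514747), where the table's annotation has an intron of an Atf7ip transcript and RefSeq only the long non-coding RNA gene Gm44140, in exon 22 of 26 of Morc2a, a chromatin-compacting ATPase of the HUSH pathway, at 3.08 (chr11:3685365-3685814), and 17.2 kb from Cbx3 at 2.88 (chr6:51487949-51488449). The highest bins for Setdb1, Ehmt2 and Trim28 were 2.87, 2.77 and 2.51.

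The levels were set beside those of 2 of the tables that share no library with MF_3w and CF_3w, chosen for the same sex or the same age. The tables were scaled separately, so a shift of the whole distribution between them has no biological reading. The authors merged peaks across conditions within each sex, so shared coordinates can follow from that step. Females at 8 weeks (MF_8w and CF_8w) shared 96589 peaks with the 3-week females, and for 71972 of them the same bin was listed. At these bins the medians were 2.51 at 3 weeks and 2.70 at 8 weeks, and the median difference was 0.22 log2 CPM. Spearman's rho across the 71972 bins was 0.55 and Pearson's r 0.62, which describe bins that share length, sequence and annotation and are not independent. Of 3198 such bins strong at 3 weeks, 2759 (86.3%) were strong at 8 weeks, where the general level was higher. Of all 71972, 15059 were strong at 8 weeks, and the 2759 made up 18.3% of these. Among the highest 1% of the 71972 bins at either age, 48.1% were shared.

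**Figure D5:**
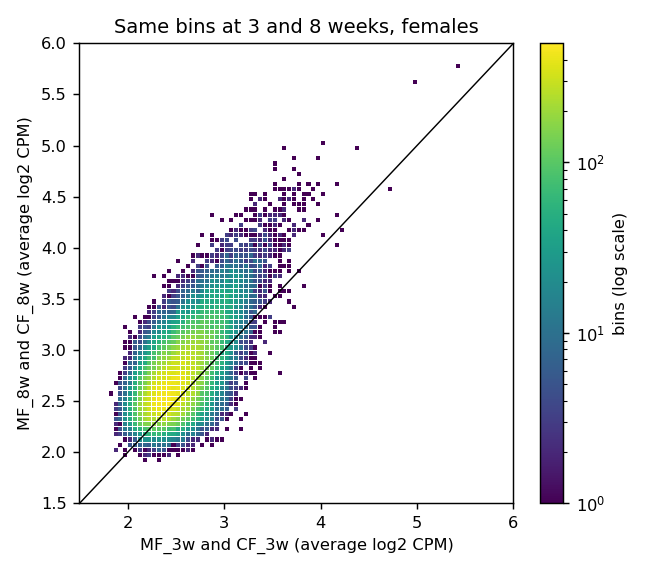
Average log2 CPM of the same bins in females at 3 weeks (horizontal) and 8 weeks (vertical); colour gives the number of bins on a log scale and the line marks equal values. Most bins lie above the line, with a median difference of 0.22, and 2 bins above 6 at 8 weeks, in Taco1 and in the Gm36264 intron, fall outside the axes.

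Males at 3 weeks (MM_3w and CM_3w) were compared over bins overlapping by at least 50% of each length, since peaks were merged separately by sex and only 122 bins had identical coordinates. The 56395 overlapping pairs had medians of 2.51 in females and 2.20 in males, with a median difference of -0.32. Spearman's rho across them was 0.56. Of the 542 pairs that were strong in males, 465 (85.8%) were strong in females, where 2973 of all 56395 pairs were strong. The 465 made up 15.6% of those 2973. Among the highest 1% of the pairs in either sex, 54.8% were shared.

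Several named bins were strong in the females at both ages and in the males, though their levels differed. Ddx4 had 3.73 in the females at 3 weeks, 3.35 in the males at 3 weeks and 4.23 in the females at 8 weeks. The Cyp2c67 bin had 3.78, 3.64 and 4.36. The Vmn1r230 bin had 3.53, 3.75 and 4.57, and so was higher in both of the others than in the females at 3 weeks. By contrast the Foxa1 bin was 3.20 and 3.21 in females at the 2 ages and 1.90 in the overlapping bin of the males. Sim1 had 3.06 and 2.84 in females against 2.15 in males. With no spread for any of these values, and overlapping bins that differ in position, these differences between sexes were not tested.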

How the data were processed

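Liver H3K9me3 ChIP-seq was read from the table the authors deposited for MF_3w and CF_3w. The authors aligned reads to mm10/GRCm38 with BWA and called broad peaks with MACS2, taking out blacklisted regions. Peaks seen in at least 3 replicates were merged by the authors across conditions within each sex, and those of over 500 bp were cut into bins. The authors then used featureCounts 1.6.2, edgeR 4.3.3 and ChIPseeker for counting, comparison and annotation. The deposited average CPM is a log2 value, normalized by the authors and taken to be over the 8 libraries, which the sources used here do not state outright; a count prior in such averages narrows low values. The authors' fold change, p-value and FDR columns hold their MO comparison and were not used, so the planned test on counts could not be run. Exact depths are not given, and no interval was computed.

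Bins on chromosomes 1 to 19 were kept, with no filter on low values. Promoters reach 3 kb from a start site, and distances below 0 are upstream. GC content and soft-masked shares came from the GRCm38 RefSeq genome, and containing genes from GENCODE M21 (50641 of 51085 exonic or intronic bins matched). A list's bins are those nearest to a member. The named bins were the 5 highest in promoters, exons or introns, and intergenic DNA, with at most 1 per nearest gene, and the 3 highest genes of each list; other genes were named after their values were seen. Some of the named bins are not reported here. The lists and regions were chosen with earlier results of these data known. Alternatives were full-length bins, all chromosomes, a minimum of 1 log2 CPM, a 1 kb promoter, other choices of list bins and overlap of 50%. Functions were tested on simulated data. Analyses used Python 3.11.15, numpy 2.4.6, pandas 2.3.3, scipy 1.17.1 and matplotlib 3.10.9. Input libraries and 3 of the 6 tables were not used here.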

Additional observations from a re-analysis of the deposited data

How the results depend on the processing

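No alternative moved the overall median, the medians of promoters, gene bodies and distal intergenic bins, or the median differences from the other tables by more than 0.1 log2 CPM. The overall median was 2.40 with all autosomal bins and with a minimum of 1 log2 CPM, 2.41 with chromosome X and 2.39 with full-length bins. Limiting a list to promoter and gene body bins left all 11 medians within 0.1. Limiting it to full-length bins, chosen after seeing the data, left 10 of them within 0.1 and took the protocadherins from 2.66 to 2.83. Taking the highest bin of each member raised all 11 medians, to between 2.57 and 2.91; genes with many bins have more chances of a high one. No paired analysis was possible because the table holds no values per library, and leaving out each replicate in turn was not run for the same reason. Each level is an average over both maternal diets, and the exact depth of each library, the spread between animals and the choice of the 1 bin listed per peak limit what it can show.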

Other observations

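Peaks were also counted by the GENCODE M21 gene whose transcript contained the listed bin. The spans of these transcripts were not compared with RefSeq, so a count can include peaks that RefSeq places in other genes. Apart from the read-through gene Gm20388 with 421 peaks, the fibroblast growth factor receptor gene Fgfr2 contained 169, the calmodulin-binding transcription activator gene Camta1 141, the cadherin gene Cdh13 122 and the oxidoreductase gene Wwox 108. Their median levels were near or below that of all bins, from 2.32 in Camta1 to 2.40 in Cdh13. The highest bin in Fgfr2 was 3.02 and that in Cdh13 3.10.

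The longest peaks after that at Engase lay in Padi3 (61.5 kb), Casz1 (60.8 kb), Chd5 (54.2 kb) and Ajap1 (50.7 kb), all on chromosome 4. Their listed bins were at 2.12, 2.32, 2.34 and 2.30 log2 CPM. Chromosome X bins of the same table had a median of 2.56, and 11.7% of 6517 were strong, against 2.70% on the autosomes.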
